A study of Mus musculus with 20 samples.

Results

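The genes described here are 7 genes grouped under heat production in brown and beige fat cells, though not all encode heat-producing proteins. They are the uncoupling protein genes Ucp1, Ucp2 and Ucp3, the deiodinase gene Dio2, the transcriptional regulator gene Prdm16, and the beta-adrenergic receptor genes Adrb3 and Adrb1. Members were chosen as every array probe whose gene name in the scanner files was one of these symbols, which gave 10 of the 41174 probes and 7 of 22410 gene symbols. Ucp2 had 3 probes, Adrb1 had 2 and each other gene had 1.

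RNA of the liver and of white adipose tissue (WAT) was hybridised to Agilent whole-genome mouse arrays with a single dye, Cy3. The mice were C57BL/6 males, 5 months old, and every mouse had been given a diet with 35% fat for 6 weeks. Wild-type (WT) mice were compared with RORasg/sg mice (staggerer, written sg/sg), which lack RORα, a nuclear receptor, through a natural deletion in Rora. There were 5 arrays in each of the 4 groups (WT liver, sg/sg liver, WT WAT and sg/sg WAT) from 5 mice of each genotype. The deletion is present in the whole animal, and no group on another diet or at another temperature was part of the comparison. The labels name neither the fat depot nor the mouse behind each array, so liver and WAT arrays with the same number were not treated as 1 animal.

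Brown and beige fat cells burn fuel to make heat. Noradrenaline from sympathetic nerves binds beta-adrenergic receptors on the fat cell, cAMP rises, and protein kinase A releases fatty acids and switches on Ucp1, whose product lets protons leak across the inner mitochondrial membrane. The deiodinase encoded by Dio2 makes active thyroid hormone inside the cell, and Prdm16 directs precursors to the brown and beige fate. Ucp2 and Ucp3 are relatives of Ucp1 that are not regarded as heat-producing proteins of brown fat. Ucp2 is widely expressed and abundant in macrophages, and Ucp3 is best known from skeletal muscle and brown fat.

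Across the series, 56.48% to 62.43% of probes were well above background on the liver arrays and 71.94% to 81.08% on the WAT arrays. All 3 Rora probes were lower in sg/sg mice, by 2.81 to 2.88 on the log2 scale in liver and 2.72 to 2.75 in WAT, with no overlap between genotypes. The 6 hepatocyte markers were well above background on all 10 liver arrays, and the 7 adipocyte markers on all 10 WAT arrays. On the array of sg/sg WAT replicate 4, the mean of 19 genes of the brown fat programme was 0.40, against -1.17 to -0.76 on the other sg/sg WAT arrays. On the array of WT WAT replicate 2, the mean of the adipocyte markers was 6.02, against 6.73 to 6.85 on the other WT WAT arrays. Calls of members that change without either array are given with and without it, and those of gene lists without sg/sg replicate 4. The arrays were hybridised on 6 slides, each scanned on its own. Liver slide 1 held WT samples, slide 2 held 1 WT and 3 sg/sg samples and slide 3 held sg/sg samples, while each of the 3 WAT slides held both genotypes. No slide held both tissues, so tissue and slide cannot be told apart.

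Sequences of 3 probes with a called difference between genotypes in liver or WAT are shown first, because every value below is the brightness of such a spot. A probe is a DNA strand of 60 bases that captures labelled copies of its transcript. The 3 strands below are those of the Ucp1 probe, at chr8:81866808-81866867, of the brightest Ucp2 probe, at chr7:96545541-96545600, and of the first Adrb1 probe, at chr19:56638805-56638864. This Adrb1 probe was called in liver, whereas the Adrb1 call in WAT came from the second probe, whose strand is not shown. All 3 probes shown lie on the plus strand, and the coordinates are those of the scanner files, on mouse build mm7. Gene annotation of that build was not used here, and whether a probe lies in coding sequence or in a UTR is therefore left unsaid.
Ucp1 A_51_P426353: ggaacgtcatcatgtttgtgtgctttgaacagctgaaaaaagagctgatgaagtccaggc
Ucp2 A_51_P297105: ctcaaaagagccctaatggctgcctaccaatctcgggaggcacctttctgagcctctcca
Adrb1 A_51_P203827: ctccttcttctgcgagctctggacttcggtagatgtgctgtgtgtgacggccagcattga

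The other Ucp2 probes are A_52_P90265 at chr7:96543013-96543072 and A_52_P499675 at chr7:96547222-96547281. The Ucp3 probe, A_52_P380379, lies on the same chromosome at chr7:96532023-96532082. The Dio2 probe is A_51_P208603, at chr12:88205395-88205454 on the minus strand. The second Adrb1 probe, A_52_P322181, lies at chr19:56640778-56640837, and the file describes its target as a cDNA clone from the 3′ flank of the gene. The Adrb3 probe, A_51_P179442, was made to a splice variant and spans chr8:25982417-25982836, and the Prdm16 probe is A_51_P514139, on chromosome 4.

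RORα binds DNA at a single AGGTCA motif preceded by bases rich in A and T, other nuclear receptors bind the same motif, and the cAMP response element TGACGTCA is bound by CREB downstream of protein kinase A. The 250 bases before the annotated start were therefore searched on both strands for AGGTCA, for the stricter forms TAGGTCA and TGGGTCA, for TGACGTCA and for its core TGACG. RefSeq promoters of assembly GRCm38.p6 matched 6 of the 7 members. The promoters of Ucp1, at chr8:83290098-83290347 on the plus strand, of Ucp2, at chr7:100493108-100493357 on the plus strand, and of Dio2, at chr12:90739039-90739288 on the minus strand, are shown 5′ to 3′ up to the last base before the start. Capitals mark AGGTCA in Ucp1 and TGACGTCA in Dio2, and the Ucp2 window, shown because all 3 Ucp2 probes were called in WAT, holds neither.
Ucp1: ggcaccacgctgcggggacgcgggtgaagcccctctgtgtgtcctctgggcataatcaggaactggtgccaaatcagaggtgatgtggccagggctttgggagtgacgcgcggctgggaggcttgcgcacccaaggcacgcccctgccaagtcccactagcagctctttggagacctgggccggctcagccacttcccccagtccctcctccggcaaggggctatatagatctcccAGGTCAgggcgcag
Ucp2: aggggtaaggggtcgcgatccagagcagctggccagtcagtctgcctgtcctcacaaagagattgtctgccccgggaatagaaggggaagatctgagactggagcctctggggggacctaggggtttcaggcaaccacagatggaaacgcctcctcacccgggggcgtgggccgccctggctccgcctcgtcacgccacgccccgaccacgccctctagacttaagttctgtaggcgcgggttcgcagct
Dio2: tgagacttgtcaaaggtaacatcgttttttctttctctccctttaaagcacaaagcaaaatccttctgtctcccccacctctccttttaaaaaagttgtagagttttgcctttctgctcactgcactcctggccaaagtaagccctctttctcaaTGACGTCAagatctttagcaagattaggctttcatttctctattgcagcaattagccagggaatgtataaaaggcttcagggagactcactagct

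AGGTCA lay 14 bases before the start of Ucp1 and 149 and 44 bases before that of Ucp3, and 14% of all 32851 windows of this length held it. The stricter forms, of which TAGGTCA contains AGGTCA, were in 5.38% of windows and in none of the 6 members. TGACGTCA lay 95 bases before the start of Dio2 and in 1.55% of windows. Its core TGACG, which each TGACGTCA contains, was in 17.8% of windows, among them those of Ucp1 (147 bases before the start), Ucp2 (62 bases, on the minus strand) and Adrb1 (90 bases). These are matches of letters in a short window, not measured binding sites.

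Levels below are log2 of the spot's processed intensity minus log2 of the same array's 75th percentile, so a level of 0 is the 75th percentile and a step of 1 is a doubling. Values of 5 arrays are in the order of replicates 1 to 5. A difference is sg/sg minus WT with its standard error (SE), n = 5 arrays a group. It was tested with limma across all probes with Benjamini-Hochberg adjustment, and called where the adjusted p was under 0.05. Testing a probe required a signal well above background on 4 or more of the 10 arrays compared. Of the 10 member probes, 6 passed this filter in liver and 10 in WAT.

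In liver, 2 of the 6 member probes tested were called, both higher in sg/sg mice, against 14.6% of the 24675 probes tested (8.1% higher and 6.49% lower). They were Ucp1 and the first Adrb1 probe. Ucp1 passed the filter through its 4 sg/sg arrays and no WT array, so a higher level in sg/sg liver was fixed by the filter and the count is not read against that share. In WAT, 4 of the 10 member probes were called, against 21.9% of 32315 probes (12.8% higher and 9.14% lower). The 3 Ucp2 probes fell, the dimmest of them not with normexp background correction (0.15), and the second Adrb1 probe rose. No member was called in the same direction by the same probe in both tissues.

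**Figure D1:**
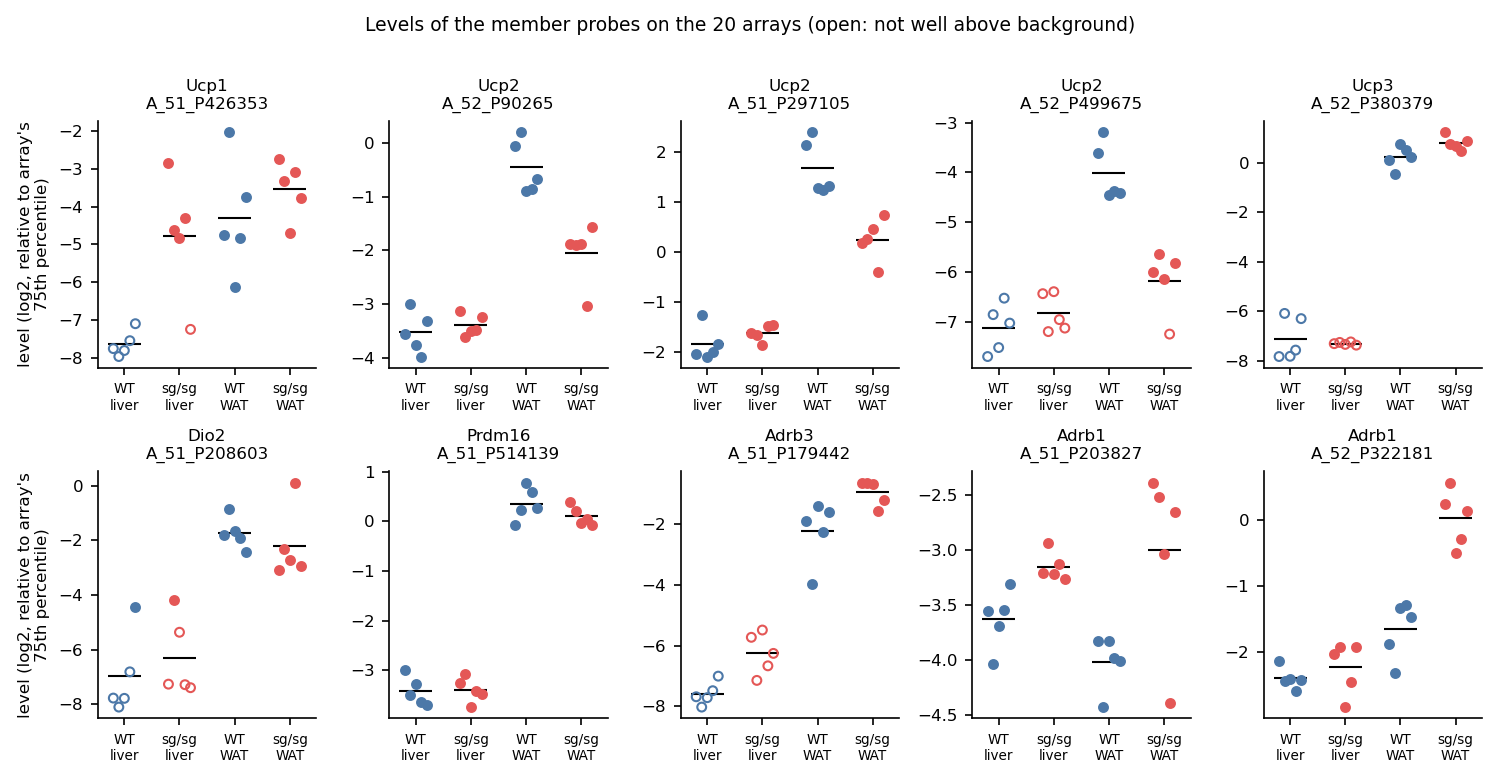
Level of each member probe (y axis, log2 relative to the array's 75th percentile) on the 5 arrays of each group, with open points for spots not well above background and a line at the group mean. On this scale the 3 Ucp2 probes were lower on every sg/sg WAT array than on every WT WAT array (the dimmest, A_52_P499675, turned to a difference of 0.15 with normexp), and Ucp1 was well above background in liver on 4 sg/sg arrays and on no WT array.

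Ucp1 encodes the protein that defines thermogenic fat cells, and its transcript is not a typical product of liver. In WT liver its probe read -7.76, -7.97, -7.81, -7.55 and -7.10, none of them well above background. In sg/sg liver it read -2.85, -4.62, -4.82, -4.29 and -7.25, and the first 4 were well above background. These 4 arrays stood clear of WT liver, while replicate 5 lay inside the WT range, so the genotypes overlapped. The measured means were -7.64 ± 0.33 and -4.77 ± 1.59 (SD, n = 5). The fitted difference was 2.87 (SE 0.63, adjusted p = 0.0196 by limma). It rests on spots filled in at background on 4 of the 5 WT arrays, and the filter admitted the probe through the sg/sg arrays, so it is given as a description. With no filter on dim probes the adjusted p was 0.0467. Because no WT array measured the transcript, the fold is a bound, at least 1.56-fold higher in sg/sg liver. For the bound, each WT array was given the dimmest signal that counted as well above background on it, or the spot's own signal where that was higher.

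On the liver slide that held both genotypes, WT replicate 5 read -7.10 and sg/sg replicates 1 to 3 read -2.85, -4.62 and -4.82. The difference within that slide was 3.0, with an adjusted p of 0.549 by limma from 4 arrays. With slide as a fixed block it was also 3.0 (adjusted p = 0.537). After background correction by normexp the difference was 0.86 (adjusted p = 0.0102). The adipocyte markers Lep and Plin1 were not well above background on any liver array, Adipoq on 1 of 10 (sg/sg replicate 5) and Retn on 2 of 10 (WT replicate 1 and sg/sg replicate 3). Of the 7 adipocyte markers, 3 were tested in liver, and their mean ran from 0.63 to 3.82 in WT and from -1.62 to -0.08 in sg/sg mice. Cfd was at -6.32 and Cidec at -3.42 in this comparison, and Fabp4 at -0.09 (adjusted p = 0.815 by limma). The part of fat cells in the Ucp1 levels of liver was not tested.

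In WAT the Ucp1 probe was well above background on all 10 arrays. WT arrays read -4.74, -2.02, -6.12, -4.83 and -3.74, and sg/sg arrays read -2.74, -3.32, -4.69, -3.09 and -3.76. The WT arrays spanned the whole sg/sg range, with replicate 2 highest and replicate 3 lowest. The difference of 0.77 (SE 0.68, adjusted p = 0.461 by limma) was smaller than the spread, and within the WAT slides it ran from 2.22 on slide 4 through 0.68 on slide 6 to -0.49 on slide 5. In order of group means, sg/sg WAT (-3.52 ± 0.75) was highest, then WT WAT (-4.29 ± 1.53), sg/sg liver (-4.77 ± 1.59) and WT liver. The ranges of the first 3 groups overlapped one another, so their order is not resolved beyond the spread.

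The genotype difference of Ucp1 in WAT minus that in liver was -2.10 (SE 0.97, adjusted p = 0.135 by limma), and it turned to 0.19 with normexp. The median of all probes moved by 0.20 under that correction, and relative to it the value was -0.04. Without sg/sg liver replicate 5, where Ucp1 was at background, the value was -2.73 (adjusted p = 0.0307 by limma). The liver term rests on WT spots at background, and the filter admitted the probe in liver through its sg/sg arrays. These interaction values are therefore given as a description. With all arrays, a difference between the tissues was not called.

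Ucp2 encodes a mitochondrial carrier linked to fuel choice and oxidant control. Its brightest probe, A_51_P297105, read 2.13, 2.39, 1.28, 1.23 and 1.32 in WT WAT. In sg/sg WAT it read 0.17, 0.25, 0.46, -0.41 and 0.73. Every sg/sg array lay below every WT array. Within WT, replicates 1 and 2 were the highest, and within sg/sg mice replicate 4 was the lowest. The difference was -1.43 (SE 0.28, adjusted p = 0.00638 by limma), a 2.69-fold lower level in sg/sg WAT.

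The other Ucp2 probes gave the same picture. A_52_P90265 read -0.06, 0.20, -0.89, -0.85 and -0.67 in WT WAT and -1.88, -1.90, -1.88, -3.03 and -1.57 in sg/sg WAT. It fell by 1.6 on the log2 scale (SE 0.30, 3.02-fold, adjusted p = 0.00551 by limma). A_52_P499675, a dimmer probe, read -3.62, -3.19, -4.46, -4.37 and -4.42 in WT WAT and -6.00, -5.64, -6.13, -7.24 and -5.82 in sg/sg WAT, where replicate 4 was not well above background. It fell by 2.15 (SE 0.35, 4.45-fold, adjusted p = 0.00253 by limma). On both probes replicates 1 and 2 were again the highest of WT and replicate 4 the lowest of sg/sg mice, and the genotypes did not overlap.

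Within each WAT slide the difference of A_51_P297105 kept its sign, at -1.79, -0.72 and -1.63 on slides 4, 5 and 6. Normexp moved the median difference of all WAT probes from 0.08 to 0.49. Relative to the median, the Ucp2 differences were then -1.87 for A_51_P297105 (adjusted p = 0.0267), -1.45 for A_52_P90265 (adjusted p = 0.0973) and -0.34 for A_52_P499675, whose raw value turned to 0.15 (adjusted p = 0.879). The direction of the dimmest probe before that adjustment therefore depended on the background correction.

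Macrophage markers moved with Ucp2. Of 9 markers, 7 fell in sg/sg WAT and 0 rose, beside 9.14% of all WAT probes called lower and 12.8% higher. Their median was -0.77, against 0.08 for all probes tested. With sg/sg replicate 4 left out, 6 fell (C1qa was then at an adjusted p of 0.0653). With normexp 4 were called, and none of the 7 turned in sign under any scaling tried. The fall was largest for Itgax, a marker of lipid-laden and inflammatory macrophages (-3.50, SE 0.40, adjusted p = 0.000768 by limma), and smaller for the pan-macrophage markers Cd68 (-1.88) and Adgre1 (-1.32). The mean of the 9 markers ran from 3.27 to 4.23 on the WT arrays and from 2.19 to 2.84 on the sg/sg arrays. WT replicates 1 and 2 were the highest and sg/sg replicate 4 the lowest, as for Ucp2. The part of macrophage RNA in the Ucp2 difference was not tested. In RNA from whole tissue, fewer cells of a type and less RNA per cell cannot be told apart.

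**Figure D2:**
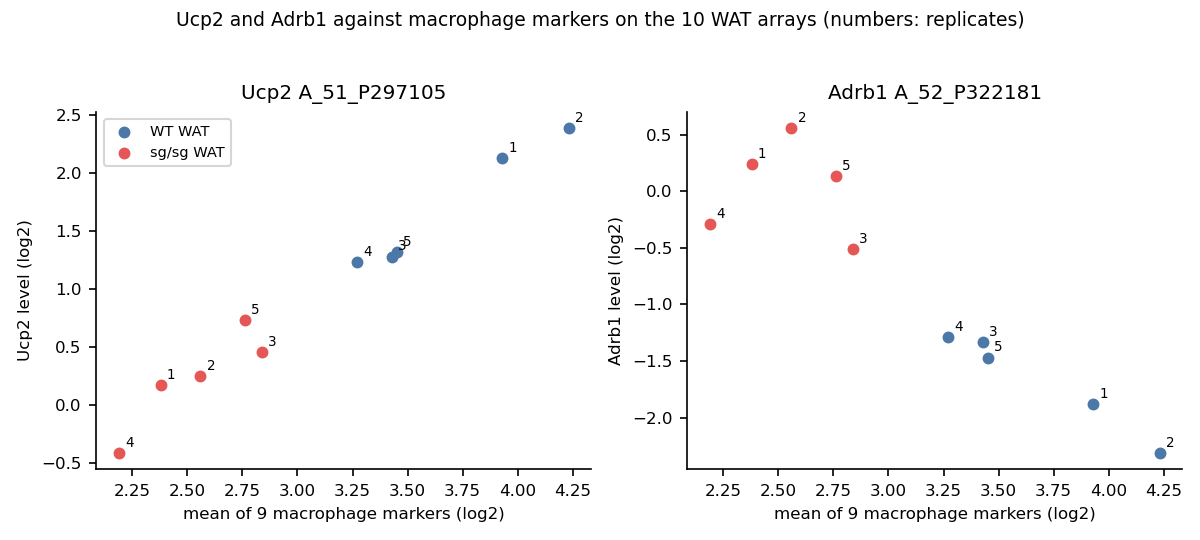
Level of the Ucp2 probe A_51_P297105 (left) and of the Adrb1 probe A_52_P322181 (right), both log2 relative to the array's 75th percentile, against the mean log2 level of 9 macrophage markers on the 10 WAT arrays, numbered by replicate. WT arrays, with marker means of 3.27 to 4.23, lie at higher Ucp2 and lower Adrb1 than the sg/sg arrays, with marker means of 2.19 to 2.84.

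Liver gave another result for Ucp2. A_51_P297105 read -2.04, -1.26, -2.10, -2.0 and -1.85 in WT liver and -1.62, -1.67, -1.87, -1.49 and -1.46 in sg/sg liver, so the genotypes overlapped. The difference was 0.23 (SE 0.16, adjusted p = 0.34 by limma). For A_52_P90265 it was 0.14 (SE 0.18, adjusted p = 0.616), and -0.09 within the liver slide that held both genotypes and with slide as a block. A_52_P499675 was not well above background on any liver array. Of the 9 macrophage markers, 4 rose in sg/sg liver and 0 fell, among them C1qa (0.80) and Cd68 (0.68), beside 14.6% of all liver probes called. Of these 4, 2 were called with median scaling and 0 with slide as a fixed block. With that block C1qa was at 0.60 (adjusted p = 0.686 by limma) and Cd68 at 0.53 (adjusted p = 0.699).

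The difference of Ucp2 between the tissues was itself called. The genotype effect in WAT minus that in liver was -1.66 for A_51_P297105 (SE 0.33, adjusted p = 0.00177 by limma) and -1.74 for A_52_P90265 (SE 0.36, adjusted p = 0.00249). Across the 6 member probes measured in both tissues, 3 were called, against 19.9% of 24344 probes (10.5% higher in WAT and 9.38% lower). With slide as a fixed block none of the 3 kept its call. The adjusted p was then 0.126 for A_51_P297105 and 0.174 for A_52_P90265, with values of -1.57 and -1.51.

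Ucp3 encodes the third uncoupling protein, expressed mainly in muscle and brown fat. Its probe read 0.12, -0.45, 0.75, 0.50 and 0.22 in WT WAT and 1.23, 0.75, 0.68, 0.47 and 0.88 in sg/sg WAT. The sg/sg arrays sat in the upper part of the WT range or above it, and replicates 1 and 5 exceeded every WT array. The difference was 0.57 (SE 0.22, 1.49-fold, adjusted p = 0.0918 by limma), and within slides it was 0.18, 0.56 and 1.20 on slides 4, 5 and 6. Relative to the median of all probes it was 0.50, and 0.02 with normexp. In liver the Ucp3 probe was not well above background on any array of either genotype.

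Skeletal muscle markers were read beside Ucp3 because muscle is a main site of its expression. Of 10 markers tested in WAT, 1 rose and 1 fell, beside 21.9% of all WAT probes called. Their mean ran from -3.63 to -3.42 in WT and from -4.11 to -3.13 in sg/sg WAT. Without sg/sg replicate 4, 3 rose and 1 fell. The marker that fell was Pvalb, a calcium buffer of fast muscle (-4.66, SE 0.45, adjusted p = 0.000496 by limma), and the marker that rose was Myh1 (0.90). With normexp Pvalb was at -1.82 (adjusted p = 0.181) and Myh1 at 1.22 (adjusted p = 0.0712). Their part in the Ucp3 levels was not tested.

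Dio2 encodes the type 2 deiodinase, a target of cAMP signalling in brown fat, and its promoter window holds the TGACGTCA element shown above. Its probe read -1.81, -0.85, -1.66, -1.92 and -2.44 in WT WAT and -3.08, -2.33, -2.71, 0.12 and -2.94 in sg/sg WAT. In sg/sg mice, replicate 4 was above every WT array and the other 4 arrays were at or below -2.33. The difference over all arrays was -0.45 (SE 0.58, adjusted p = 0.623 by limma). Without sg/sg replicate 4 it was -1.03 (adjusted p = 0.0286), so this single array decided the call. Within slide 4, which held that array, the value was 0.64, against -0.39 and -1.70 within slides 5 and 6. In liver, 1 of 5 arrays of each genotype was well above background, and Dio2 was not tested.

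Prdm16 read -0.08, 0.22, 0.78, 0.60 and 0.27 in WT WAT and 0.39, 0.20, -0.04, 0.04 and -0.08 in sg/sg WAT. The genotypes overlapped, with WT replicates 3 and 4 above every sg/sg array and the lowest array of each genotype at -0.08. The difference was -0.25 (SE 0.17, adjusted p = 0.321 by limma), and within the WAT slides it ran from -0.33 to -0.02. WT liver read -3.0, -3.49, -3.27, -3.63 and -3.69, and sg/sg liver read -3.25, -3.08, -3.74, -3.41 and -3.48. The liver difference was 0.02 (SE 0.16, adjusted p = 0.933), and its sign turned with the scaling, to -0.08 with median scaling and -0.07 with quantile normalization.

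Adrb3 encodes the beta-adrenergic receptor typical of mouse fat cells. Its probe read -1.89, -3.95, -1.39, -2.25 and -1.60 in WT WAT and -0.63, -0.62, -0.66, -1.56 and -1.19 in sg/sg WAT. WT replicate 2 was by far the lowest, and of the sg/sg arrays replicate 4 alone lay below any WT array, namely WT replicate 3. The difference was 1.29 (SE 0.44, 2.44-fold, adjusted p = 0.0625 by limma). It was 0.85 without WT replicate 2 (adjusted p = 0.0392) and 1.44 without sg/sg replicate 4 (adjusted p = 0.0475), so either array decided the call. Within slides 4, 5 and 6 it was 0.55, 0.68 and 2.47. In liver Adrb3 was not well above background on any array.

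Adrb1 encodes the beta-adrenergic receptor best known from the heart, which is also present in fat. Its second probe, A_52_P322181, read -1.88, -2.31, -1.33, -1.29 and -1.47 in WT WAT. In sg/sg WAT it read 0.24, 0.56, -0.51, -0.29 and 0.13. Every sg/sg array lay above every WT array. The difference was 1.68 (SE 0.25, adjusted p = 0.0019 by limma), a 3.21-fold higher level in sg/sg WAT, and within slides 4, 5 and 6 it was 1.74, 1.28 and 2.04. Relative to the median of all probes it was 1.6, and 1.14 with normexp (adjusted p = 0.0109).

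The first Adrb1 probe, A_51_P203827, read -3.83, -4.43, -3.83, -3.98 and -4.01 in WT WAT and -2.39, -2.52, -3.04, -4.39 and -2.66 in sg/sg WAT. On it, 4 sg/sg arrays lay above every WT array and replicate 4 lay near the lowest WT array. The difference was 1.01 (SE 0.34, 2.02-fold, adjusted p = 0.0598 by limma) and 1.36 without sg/sg replicate 4 (adjusted p = 0.00124). With normexp it was 1.53 (adjusted p = 0.0348), or 1.04 relative to the median of all probes. The probes thus pointed the same way in WAT but disagreed on that array, where A_52_P322181 stayed above all WT arrays.

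Adipocyte markers were read beside the receptors in WAT, where 21.9% of all probes were called (12.8% higher and 9.14% lower). Of 7 markers, 3 rose (Plin1, Cfd and Adipoq) and 1 fell (Lep, the hormone of fat stores), none of them called with normexp. Leaving out sg/sg replicate 4, 2 rose and 1 fell (Cfd was then at an adjusted p of 0.0589). Their mean ran from 6.02 to 6.85 in WT and from 6.87 to 7.26 in sg/sg mice. The lowest array was WT replicate 2, which also had the lowest Adrb3 and the lowest Adrb1 on both probes. Mesothelial markers, of the lining of abdominal organs and fat, rose for 3 of 4 genes, with means of 0.37 to 1.98 in WT and 1.79 to 2.53 in sg/sg WAT. With slide as a fixed block 1 of the 3 was called (Wt1), and with normexp also 1 (Wt1, at the threshold). The part of either cell type in the receptor differences was not tested.

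In liver the first Adrb1 probe read -3.56, -4.04, -3.69, -3.55 and -3.31 on the WT arrays. The sg/sg liver arrays read -3.21, -2.94, -3.22, -3.13 and -3.27. The genotypes did not overlap, but the gap between the highest WT and the lowest sg/sg array was narrow. The difference was 0.48 (SE 0.13, 1.39-fold, adjusted p = 0.0352 by limma). The call was lost in 9 of the 10 fits that left out 1 liver array, with adjusted p of 0.018 to 0.0771 and differences of 0.37 to 0.56. On the liver slide with both genotypes the difference was 0.19 (adjusted p = 0.847). The second probe read -2.13, -2.44, -2.40, -2.58 and -2.42 in WT liver and -2.03, -1.92, -2.83, -2.45 and -1.92 in sg/sg liver, a difference of 0.17 (SE 0.18, adjusted p = 0.553).

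The genotype effect in WAT exceeded that in liver for A_52_P322181, by 1.52 (SE 0.32, adjusted p = 0.00242 by limma), and by 1.53 with slide as a fixed block (adjusted p = 0.128). For A_51_P203827 the excess was 0.54 (adjusted p = 0.338), and 0.89 without sg/sg WAT replicate 4 (adjusted p = 0.00544). With normexp it was 1.11 (adjusted p = 0.0486), or 0.88 relative to the median of all probes.

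**Figure D3:**
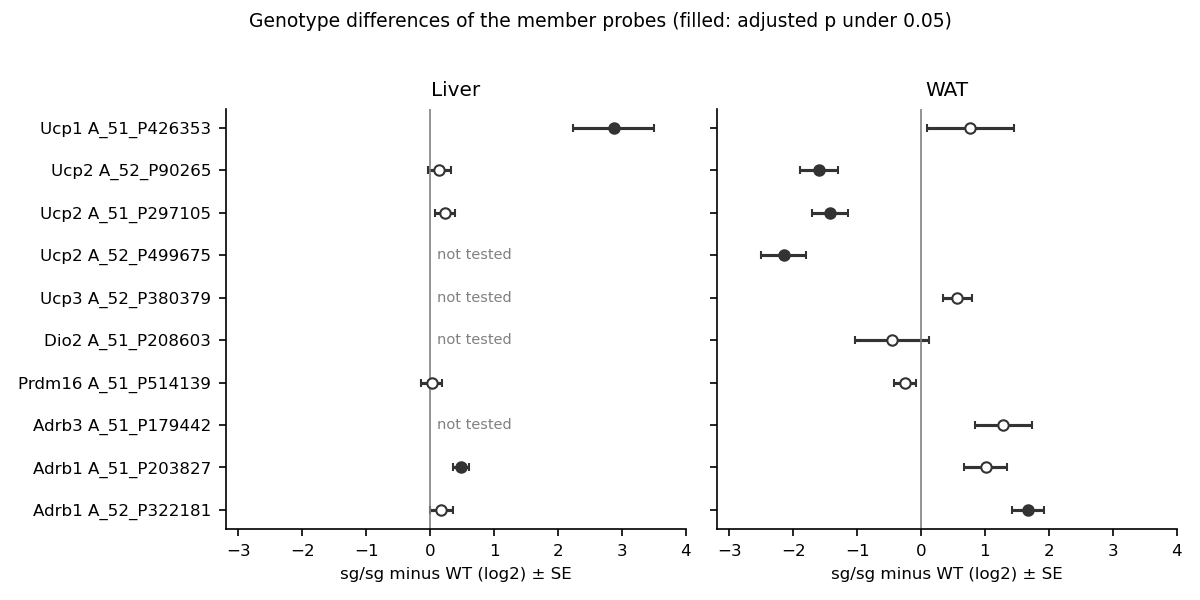
Difference between genotypes (sg/sg minus WT, log2, with bars of 1 SE) for each member probe in liver and WAT, filled where the adjusted p was under 0.05, with n = 5 arrays a group. In WAT the 3 Ucp2 probes lie between -2.15 and -1.43 and the Adrb1 probe A_52_P322181 at 1.68, and in liver Ucp1 lies at 2.87, where WT liver was at background and the data bound the fold at 1.56 or more. With normexp the Ucp2 probe at -2.15 turned to 0.15.

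In WT mice the members were mostly brighter in WAT than in liver. All 10 probes were called between the tissues, 9 higher in WAT, against 77.5% of the 31551 probes tested (36.2% higher in WAT and 41.3% lower), a share so large that the members' count says little about them. Ucp3 was at least 49.8-fold higher in WAT (adjusted p = 3.21e-08 by limma), Adrb3 at least 9.14-fold (adjusted p = 9.45e-07) and Ucp1 at least 2.18-fold (adjusted p = 0.000575), each against liver arrays none of which was well above background. The dimmest Ucp2 probe, A_52_P499675, was at least 2.64-fold higher in WAT, again with no liver array well above background. The Ucp3, Adrb3, Ucp1 and this Ucp2 probe passed the filter through WAT, so their direction was fixed by it. Their fitted differences and adjusted p are therefore given as a description. The Dio2 difference was 5.24 (SE 0.65), against a liver group well above background on 1 of 5 arrays, and 1.98 with normexp. The difference of Prdm16 was 3.77 (SE 0.18, 13.7-fold) and that of Ucp2 A_51_P297105 was 3.52 (SE 0.26, 11.5-fold). For Ucp1 the difference was 3.35 (SE 0.63) and for the dimmest Ucp2 probe it was 3.11, and with normexp they were 0.22 (adjusted p = 0.595) and 0.12 (adjusted p = 0.515). That correction moved the median of all probes by -0.47, and relative to it they were 0.78 and 0.68.

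The Adrb1 probes disagreed between the tissues. A_52_P322181 was higher in WT WAT than in WT liver by 0.74 (SE 0.19, adjusted p = 0.00512 by limma). A_51_P203827 was lower by 0.38 on the log2 scale (SE 0.16, adjusted p = 0.0436), and 7 of the 10 fits without 1 array lost that call. Tissues overlapped on both probes, and tissue could not be separated from slide, scan and scanner.

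The order of group means was the same for Adrb3 and Ucp3 within WAT, with sg/sg above WT and each liver group at background. For Ucp2 it was WT WAT, then sg/sg WAT, then liver on all 3 probes. On A_51_P297105, sg/sg WAT overlapped neither WT WAT nor liver, while on A_52_P90265 its replicate 4, at -3.03, lay below the highest WT liver array. The liver genotypes overlapped on both. Prdm16 separated the tissues but not the genotypes. For Adrb1 A_52_P322181, sg/sg WAT stood above the 3 other groups, among which WT WAT and both liver groups overlapped.

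The rest of the programme was read from lists of pathway genes, each gene at its brightest probe. The counts of every list in WAT stand beside the 21.9% of all WAT probes that were called (12.8% higher and 9.14% lower). In WAT, 19 genes of the brown fat programme were tested, of which 5 rose, 3 fell and 11 did not pass, with a median of 0.23 against 0.08 for all probes. Otop1, a proton channel gene of brown fat, fell by 4.19 on the log2 scale (SE 0.48, 18.3-fold, adjusted p = 0.00077 by limma). The mitochondrial coactivator genes Ppargc1a and Ppargc1b rose by 1.58 (SE 0.20, adjusted p = 0.00119) and 1.25 (SE 0.16, adjusted p = 0.00114), and Cidea, a lipid droplet gene that marks brown fat, rose by 1.31 (SE 0.21, adjusted p = 0.0026). Also higher were Ebf2 (0.63) and Mpzl2 (1.48), and also lower were Gk (-1.07) and Esrrg (-0.87), which are named to complete the counts after their values were seen. Genotypes did not overlap for these 8 genes except Mpzl2. This is given as a description, because the 8 were picked by their calls and the share over all probes was not counted. With normexp, limma called 4 brown fat genes higher and 0 lower, against 5 higher and 0 lower at an unadjusted p under 0.05. All 8 kept their sign, and Otop1 was then at -1.18 (adjusted p = 0.257).

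Among 10 beige markers tested in WAT, 2 rose and 3 fell, beside 12.8% and 9.14% of all WAT probes, with a median of -0.16. The immune receptor genes Cd40 and Tnfrsf9, both used as beige markers, fell by 0.75 (SE 0.12, adjusted p = 0.00284 by limma) and 1.13 (SE 0.21, adjusted p = 0.00504), and the surface protein gene Tmem26 fell by 1.34 (SE 0.31, adjusted p = 0.0125). With normexp Tmem26 turned to 0.82 (adjusted p = 0.374) and Tnfrsf9 to 0.80 (adjusted p = 0.39), and Cd40 was at -0.19 (adjusted p = 0.594). Under that correction 1 beige marker was called higher and 0 lower, with a list median of 0.45. The homeobox gene Hoxc9 rose by 0.87 (SE 0.23, adjusted p = 0.0217). Tbx1, named after its values were seen, rose by 2.0 (adjusted p = 0.0497), and 0.0667 was its adjusted p without sg/sg replicate 4.

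Some brown fat genes set sg/sg WAT replicate 4 apart, in both directions. That array was the lowest of the 10 WAT arrays for Esrrg (-3.45) and Tfam (3.82), genes of the same list picked after their values were seen. Cox8b, a cytochrome oxidase subunit gene of brown fat and muscle chosen here after its values were seen, read 1.84, 2.06, 2.0, 4.10 and 1.57 in sg/sg WAT and 1.39 to 2.17 in WT WAT. Elovl3, a fatty acid elongase gene of brown fat, read -6.49, -7.22, -7.01, -1.72 and -4.69 in sg/sg WAT and -5.20 to -1.16 in WT WAT. Replicate 4 was the highest sg/sg array for both genes, and it was also the highest for Dio2, whereas for Ucp1 its level of -3.09 lay inside the range of the group. Without it, 5 brown fat genes rose and 4 fell, with a median of 0.09. All 8 genes called with every array were among them, and Elovl3 was the gene added (-2.63, adjusted p = 0.0411, against -1.70 and adjusted p = 0.305 with every array).

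**Figure D4:**
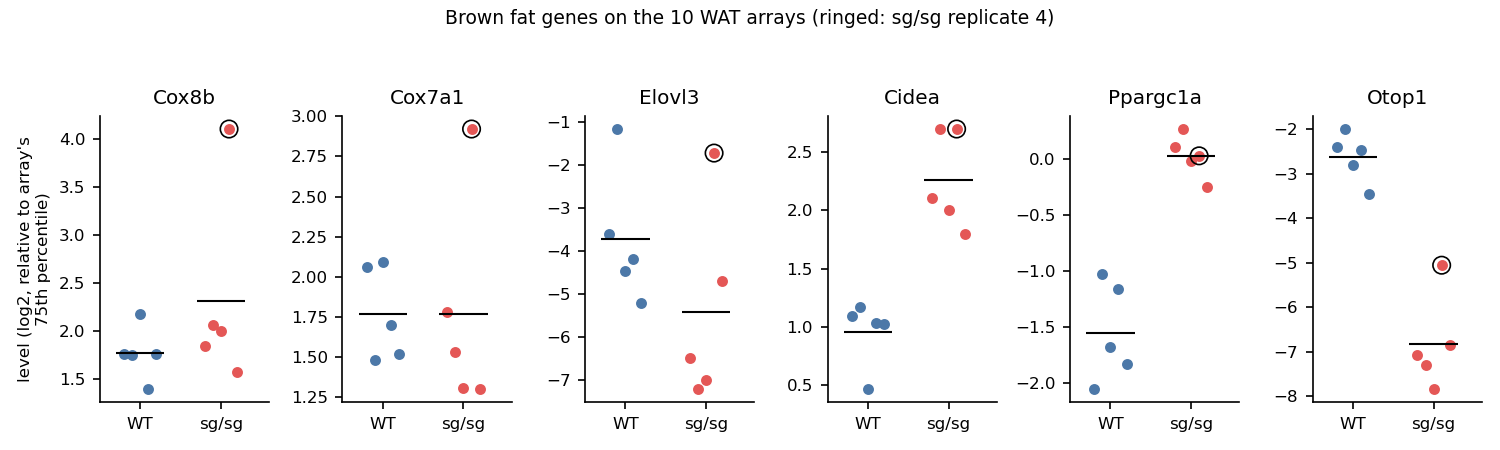
Level (y axes, log2 relative to the array's 75th percentile) of 6 brown fat genes on the 5 WT and 5 sg/sg WAT arrays, with a line at the group mean and a ring around sg/sg replicate 4. That array is the highest of the sg/sg group for Cox8b (4.10), Cox7a1 (2.92), Elovl3 (-1.72) and Otop1 (-5.06), while Cidea and Ppargc1a are higher on all 5 sg/sg arrays than on any WT array.

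Of 20 adrenergic and cAMP signalling genes tested in WAT, 3 rose and 1 fell, with a median of 0.22. That share is near the 21.9% called over all WAT probes. Without sg/sg replicate 4, 4 rose and 1 fell. The lipase gene Pnpla2 rose by 0.49 (SE 0.10, adjusted p = 0.0061 by limma) on 1 of its 2 probes, the cAMP phosphodiesterase gene Pde3b by 0.88 (SE 0.19, adjusted p = 0.0109) and the adenylate cyclase gene Adcy6 by 0.65 (SE 0.15, adjusted p = 0.0124). Gnai2, an inhibitory G protein gene, fell by 0.33 (SE 0.10, adjusted p = 0.0427 by limma). It kept its sign but not its call with normexp, median scaling, quantile normalization and slide as a fixed block (adjusted p = 0.0611 to 0.199). Of 7 thyroid hormone genes, 2 rose and 0 fell, namely the receptor genes Thra (0.60, SE 0.13, adjusted p = 0.00922) and Thrb (0.96, SE 0.26, adjusted p = 0.0243).

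Regulators that act with or against Prdm16 made up a list of 17 genes tested in WAT. Of them, 6 rose, 0 fell and 11 did not pass, beside 12.8% of all WAT probes called higher and 9.14% lower. Their median was 0.07, next to 0.08 for all probes. When sg/sg replicate 4 was left out, 7 rose and 1 fell. The genes added were Bmp4 (1.03, adjusted p = 0.00301 by limma) and Rbl1 (-0.26, adjusted p = 0.039), named after their values were seen. Pparg, the master factor of fat cells, rose by 0.86 (SE 0.15, adjusted p = 0.00328 by limma), Ppara by 0.73 (SE 0.13, adjusted p = 0.0041), Foxc2 by 1.09 (SE 0.21, adjusted p = 0.00592) and Ehmt1, the methyltransferase partner of Prdm16, by 0.48 (SE 0.11, adjusted p = 0.014). Among 10 genes of heat production without Ucp1, 1 rose. It was Sln, a calcium pump regulator, with a dim probe that was well above background on 3 WT and 5 sg/sg arrays (2.78, SE 0.83, adjusted p = 0.0368, and 0.0557 without sg/sg replicate 4). Of 8 other mitochondrial carriers, 1 rose, Slc25a27 (0.51, SE 0.11, adjusted p = 0.00972), whose product is also counted as an uncoupling protein. Without sg/sg replicate 4, 2 carriers rose. Of the 27 pathway genes called in WAT over the 7 lists, 22 were called with median scaling, 26 with quantile normalization, 25 with slide as a fixed block and 9 with normexp, and the sign turned for none of them but Tmem26 and Tnfrsf9.

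**Figure D5:**
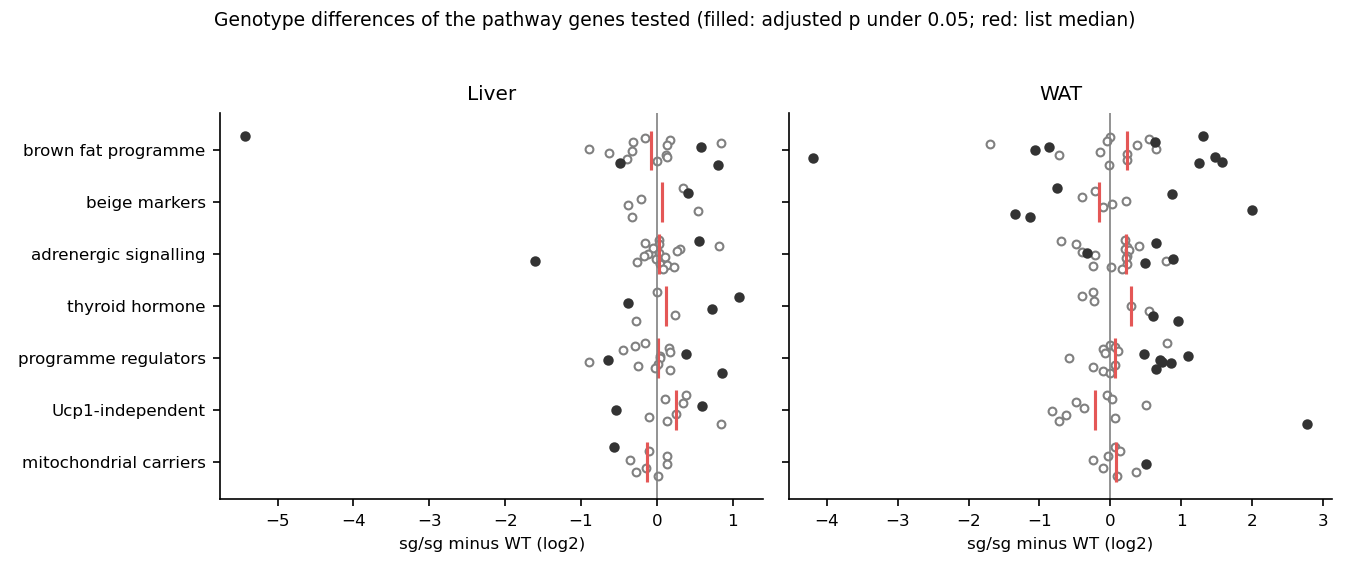
Difference between genotypes (x axis, sg/sg minus WT, log2) of each gene tested in 7 pathway lists, in liver and WAT, filled where the adjusted p was under 0.05, with a red bar at the list median. List medians lie between -0.21 and 0.29 in WAT and between -0.12 and 0.25 in liver, near those of all probes, 0.08 and 0.04, while single genes lie far out, such as Cidea in liver at -5.43 and Otop1 in WAT at -4.19.

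The counts in liver stand beside the 14.6% of all liver probes that were called. Of 16 brown fat genes tested, 2 rose and 2 fell, with a median of -0.07 against 0.04 for all probes. Cidea read 0.37 to 5.82 in WT and -4.02 to -2.13 in sg/sg liver and fell by 5.43 on the log2 scale (SE 0.85, adjusted p = 0.0076 by limma), the opposite direction to WAT and to Ucp1 on the same arrays. With slide as a fixed block its difference in liver was -3.49 (adjusted p = 0.602). Ppargc1b fell by 0.49 (SE 0.14, adjusted p = 0.0455), and Esrrg and Tfam rose by 0.58 (SE 0.13, adjusted p = 0.02) and 0.81 (SE 0.23, adjusted p = 0.0385). Esrrg was called on 1 of its 2 probes and Tfam on 2 of its 3. Of 6 beige markers Cited1 rose (0.41, adjusted p = 0.0333). Cox8b was 0.17 higher in sg/sg liver (adjusted p = 0.675).

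Of 19 adrenergic signalling genes in liver, 1 rose, Adcy3, and 1 fell, the phosphodiesterase gene Pde4d. Adcy3 rose by 0.55 (adjusted p = 0.0461 by limma) on 1 of its 2 probes. It was not called with normexp, median scaling or quantile normalization (adjusted p = 0.0734 to 0.124). The Pde4d probe was well above background on 4 WT arrays and 0 sg/sg arrays, so a lower level in sg/sg liver was fixed by the filter. Its fitted difference, given as a description, was -1.61 (SE 0.31, adjusted p = 0.0131 by limma), but -0.15 with normexp (adjusted p = 0.257). Pde4d is among the 16 called pathway genes counted below. Of 6 thyroid hormone genes, the transporter gene Slc16a10 (1.08, SE 0.19, adjusted p = 0.0103) and the sulfotransferase gene Sult1d1 (0.73, SE 0.15, adjusted p = 0.0168) rose. Of 15 regulators, Twist1 (0.86) and Ctbp2 (0.38) rose and Ppara fell by 0.65 (SE 0.13, adjusted p = 0.0131). Among 9 genes of heat production without Ucp1, Ckmt1 rose by 0.59 (SE 0.15, adjusted p = 0.0306) and Gamt, a creatine synthesis gene, fell by 0.54 (SE 0.09, adjusted p = 0.00974). Of 8 other carriers Slc25a10 fell by 0.56 (SE 0.14, adjusted p = 0.0292). With slide as a fixed block, 0 of the 16 pathway genes called in liver kept their call by limma, 5 of them had an unadjusted p under 0.05, and 7 of all liver probes were called against 3601 without it. Of the 16, 14 were called with normexp, 12 with median scaling and 11 with quantile normalization, and all 16 kept their sign under these settings and the block.

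The genes whose levels over the 10 WAT arrays followed each member most closely are given as a description. The likeness is Pearson's r with the member's brightest probe among 32268 probes, and the arrays share the 2 genotypes. For Ucp2 they were Dcbld2, Itga5 and the macrophage metal transporter gene Slc11a1, each with r = 0.993. The genes most like Adrb1 were Arl5b (0.986), Kin (0.979) and Nrg4, a factor secreted by brown fat (0.978), and those most like Adrb3 were Cyp2e1 (0.986), Selenbp1 (0.979) and Tapbpl (0.974). Dio2 was followed by Pdlim5 (0.978), Scai (0.975) and Snx27 (0.975), and Ucp3 by Fry (0.961), Akt2 (0.95) and Sox6 (0.949). The closest genes were less close for Ucp1, namely Olfr520 (0.918), Wdr20rt (0.917) and Fgf7 (0.911), and for Prdm16, namely Nsmce1 (0.88), Syt2 (0.863) and Plcl1 (0.862).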

How the data were processed

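The deposited intensities come from the authors' run of Agilent Feature Extraction 9.5, per the file headers and the submitters' processing notes, with background subtraction and surrogate values for spots at background, which make differences between dim spots depend on that fill-in. The deposited value table was identical to them, on a linear scale and not centred, so neither scale nor centring stayed unknown. Levels were log2 of that intensity minus the array's 75th percentile over spots that are not controls, with outlier spots left out and spots of a probe averaged. Probes well above background on at least 4 of 10 arrays and missing on at most 2 were tested, each probe as its own feature, with lmFit and eBayes of limma 3.58.1 (R 4.3.3), two-sided, adjusted over all probes tested. The interaction was fitted to all 20 arrays. The fits were tested on simulated data. The members and lists were chosen with earlier results of these data known. From each list, up to 4 called genes of smallest p a tissue are named. Alternatives were normexp with an offset of 50, median and quantile scaling, other filters, slide and replicate blocks, single slides and leaving out each array. Array number limits the precision. The result of 1 pathway gene is not reported here.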

Additional observations from a re-analysis of the deposited data

Results flagged for a closer look

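Of 33 sets of 5 arrays of a member probe examined, 2 held an array far from the others of its group, and chance flags about 1 in 20. Both were the array of sg/sg WAT replicate 4. The Ucp2 probe A_52_P90265 read -3.03 there, against -1.90 to -1.57 on the other sg/sg WAT arrays. The Dio2 probe read 0.12 there, against -3.08 to -2.33. The 3 Ucp2 probes kept their calls without this array, whereas Dio2, Adrb3 and the Adrb1 probe A_51_P203827 passed the threshold in WAT without it. Over all WAT probes the calls went from 7083 to 10041 without it, so gained calls were not particular to the members. This array also had the lowest share of probes well above background among the WAT arrays, 71.94%.

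For 3 of the 6 member probes tested, the genotype effect differed between the tissues by the interaction test of limma, against 19.9% of all 24344 probes. With slide as a fixed block none of the 3 kept its call. The effect in WAT minus that in liver was -1.74 for Ucp2 A_52_P90265 (adjusted p = 0.00249), -1.66 for Ucp2 A_51_P297105 (adjusted p = 0.00177) and 1.52 for Adrb1 A_52_P322181 (adjusted p = 0.00242).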

How the results depend on the processing

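In liver 3601 probes were called. The count was 1245 with no filter on dim probes, 7 with slide as a fixed block, 0 within slide 2 (limma, with 1965 at an unadjusted p under 0.05), 1658 with the replicate block and 1158 to 4106 without 1 array. Member probes called in liver went from 2 to 1 with no filter, with probes well above background on all arrays, with 1 probe a gene, with slide as a random block and with the replicate block. They went to 0 with slide as a fixed block and within slide 2 (1 at an unadjusted p under 0.05 in each), and were 1 to 2 without 1 array. In WAT the 7083 calls became 1492 with normexp, 4488 with the replicate block, 0 within each of slides 4, 5 and 6 (4786, 5078 and 4310 at an unadjusted p under 0.05) and 5039 to 10041 without 1 array. The 4 member calls, 1 higher and 3 lower, became 3 with normexp, 2 higher and 1 lower. They became 2 with 1 probe a gene, 0 within each slide (5, 6 and 3 at an unadjusted p under 0.05) and 4 to 7 without 1 array, with 7 without sg/sg replicate 4.

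The interaction had 4834 calls, 2705 with normexp and 776 with slide as a fixed block, where member calls fell from 3 to 0 (3 at an unadjusted p under 0.05). Without 1 array it had 3935 to 6261 calls and 3 to 4 member calls. Between the WT tissues, 5 member probes could be tested and were called where all arrays had to be above background, and 9 to 10 were called without 1 array. The split of calls into higher and lower moved with the scaling, from 1999 and 1602 to 865 and 2291 in liver with median scaling, from 2550 and 2284 to 2892 and 1533 for the interaction with median scaling, and from 11421 and 13045 to 8130 and 18912 between tissues with normexp.

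These signs turned, and the cause was not tested. Prdm16 in liver went from 0.02 to -0.081 with median scaling, -0.070 with quantile normalization and -0.054 to 0.13 without 1 array. Ucp2 A_52_P90265 in liver became -0.092 with slide as a fixed block and within slide 2. In WAT, Ucp2 A_52_P499675 became 0.15 with normexp, Dio2 0.64 within slide 4 and Ucp1 -0.49 within slide 5. The Ucp1 interaction became 0.19 with normexp. Of 708 values of member probes under alternatives, 645 kept direction and side of the threshold, 42 lost a call, 9 gained one and 12 turned in sign. The 708 include values from the deposited table, identical to the main ones, which could not change, and fits without 1 array. The pathway lists without sg/sg WAT replicate 4, and under the other scalings and the slide block, were chosen after seeing the data. Same-numbered arrays of the genotypes did not deviate together, with correlations from -0.113 to 0.169 in liver and -0.136 to 0.087 in WAT. A pairing by replicate number was therefore not seen, but these values cannot exclude it. The replicate block changed no other member call than Adrb1 A_51_P203827 in liver (adjusted p = 0.102). A fixed slide block could not be fitted for the comparison of the tissues.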
